A study of Mus musculus with 6 samples.

Results

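The TNF superfamily was followed here as 41 genes of the 22905 gene symbols in a count table of mouse liver cells. Members were taken by name: each symbol beginning with Tnfsf or Tnfrsf and a digit, plus Tnf, Lta, Ltb, Ltbr, Cd40, Cd40lg, Fas, Fasl, Cd27 and Cd70. They comprised 17 ligand genes, 23 receptor genes and 1 antisense transcript, Tnfsf13os. The rule uses names alone and no measured value, although it was set with earlier results of these data known. RNA-seq was performed on cells labelled as primary hepatic stellate cells, liver pericytes that store vitamin A, from mice of the genotype BucheKI/KI-Hep. All animals, controls included, carried this genotype and had been given CCl4 (carbon tetrachloride, which injures hepatocytes and leads to fibrosis). The groups were 3 libraries labelled PBS and 3 libraries labelled DOX, and the comparison asks how the isolated cells differed once butyrylcholinesterase was over-expressed in hepatocytes. The promoter behind the knock-in, the dose and timing of DOX, and the age of the animals are stated in none of the labels. Every sample title carries the tag S2W, whose meaning is not given. Neither DOX-treated mice lacking the knock-in nor mice spared CCl4 were analysed here, so DOX itself and the introduced gene cannot be told apart. The labels do not say that replicates came from separate animals, so every p-value below reflects only how far these libraries differ from each other, and that spread may be technical.

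Ligands of the TNF superfamily are mostly trimeric type II membrane proteins, and several are cleaved from the cell surface. Their receptors fall into those with a cytoplasmic death domain, which recruit FADD or TRADD and can start caspase-8 or RIPK3-MLKL cell death, those that bind TRAF adaptors directly and activate NF-kB, and decoys that bind ligand without signalling. In injured liver, macrophages are a main source of TNF, lymphocytes bear Fas ligand and lymphotoxins, and stellate, endothelial and parenchymal cells bear many of the receptors.

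Library totals were between 36220282 and 37707364 counts, so that 1 read equalled 0.0253 to 0.0293 CPM (CPM, the count scaled to a TMM-adjusted library size). Bche, the gene that was over-expressed, had 8, 26 and 14 counts in PBS replicates 1, 2 and 3 and 1225, 582 and 3639 counts in DOX replicates 1, 2 and 3. The stellate cell label was checked against 12 marker genes. Their summed level was 645 to 1446 CPM in PBS and 789 to 1249 CPM in DOX. The most abundant of them were Dcn, at 496 CPM on average in PBS and 557 CPM in DOX, and Ecm1, at 167 and 216 CPM. Lrat, the vitamin A-esterifying enzyme that defines the cell type, was the least abundant in PBS, at 2.00 CPM on average, and was 2.41 CPM in DOX. Endothelial markers summed to 5353 to 6626 CPM in PBS and 4704 to 5974 CPM in DOX, and macrophage markers to 3486 to 5639 CPM and 6993 to 12637 CPM. The RNA was therefore not of stellate cells alone, and the values below are those of the whole library. In such bulk RNA, fewer cells of a type and less RNA per cell cannot be told apart.

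In all, 7 ligand and receptor genes were higher in the DOX libraries and none was lower. These were the ligands Tnf, Lta, Fasl and Tnfsf9 and the receptors Tnfrsf9, Tnfrsf14 and Tnfrsf11a, with folds between 2.10 for Tnfsf9 and 7.31 for Fasl. Of the 41 members, 38 had enough counts to be tested, and the 7 were 18.4% of them (edgeR quasi-likelihood test, adjusted p under 0.05 over all 14439 genes tested). Over all genes tested the percentage called was 6.41%, with 4.38% higher and 2.04% lower. The log2 fold change was positive in 26 of the 38 members, with a median of 0.51, against 48.6% of all genes and a median of -0.01. Scaling by library totals alone shifted all genes by -0.13 and left 24 of the 38 positive. By CPM, every DOX library lay above every PBS library in 15 of the 38 members and below in 0, or 39.5% and 0%. Over all genes tested these shares were 16.9% and 17.7%, 34.6% in all. Scaled by gene length and library total (FPKM), Tnfrsf1a and Ltbr, which are among the 15, overlapped between groups. Of these 15, Fasl, Lta, Tnfsf4 and Tnfsf8 had fewer than 10 counts in a PBS library and met the low-count filter only with their DOX libraries. The same holds for Tnfsf11 and Tnfrsf25 among the 26 positive members. Their tests and their places in these counts are therefore not independent of a high level in DOX. Ligands and receptors are given apart. Among 15 tested ligand genes 4 were higher and 13 had a positive log2 fold change (median 1.07), and among 22 tested receptor genes 3 were higher and 13 were positive (median 0.24). DESeq2 called 11 members, all higher, adding Cd40, Ltb, Tnfsf10 and Fas, at a background of 17.6% of 14908 genes (11.3% higher and 6.36% lower). Limma-voom called 7, with Cd40 in place of Tnfrsf9, at a background of 5.97%. At an unadjusted p under 0.05 there were 17 members, 16 of them positive, against 28.7% of all genes. Whether the edgeR calls held depended on which library was left out. Without PBS replicate 1 or DOX replicate 3 the number of members called was 9 and 8. Without PBS replicate 2 or PBS replicate 3 no gene of the whole table was called in edgeR, members included, though 12 and 14 members had an unadjusted p under 0.05. Without DOX replicate 1 the call of Tnf alone was left (85 genes in all), and without DOX replicate 2 those of Fasl, Tnf and Tnfrsf11a (438 genes in all).

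**Figure D1:**
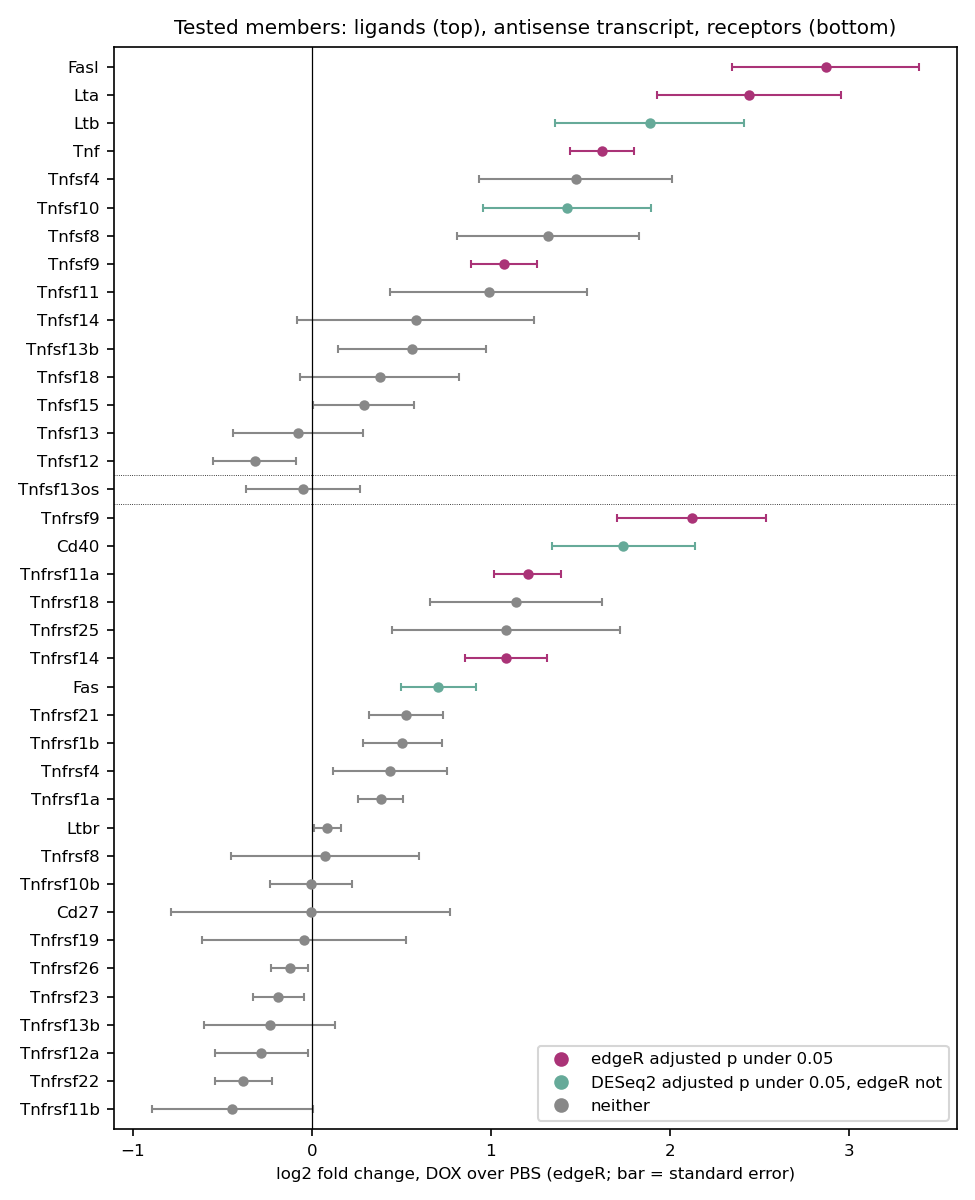
Log2 fold change of DOX over PBS (x axis, edgeR, error bars 1 SE) for the 38 tested members, 1 point per gene. The 7 members past the threshold all lie to the right of 0, from 1.07 for Tnfsf9 to 2.87 for Fasl, and no member past it lies to the left.

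To compare genes with each other, levels were read as FPKM (counts scaled by gene length and library total), which the authors deposited. Receptor transcripts outweighed ligand transcripts in all 6 libraries. The receptor FPKM summed to 689 to 794 in PBS and 781 to 904 in DOX, and the ligand FPKM to 66.7 to 82.3 in PBS and 147 to 201 in DOX. By mean FPKM over all 6 libraries, the most abundant members were Tnfrsf1a, the main TNF receptor with a death domain, at 151 ± 14.6 in PBS and 180 ± 15.5 in DOX (SD, n = 3 each), and Tnfrsf1b, the TRAF-binding TNF receptor, at 95.3 ± 24.8 and 125 ± 23.8. The next receptors were Tnfrsf12a (117 ± 14.6 FPKM in PBS and 89.0 ± 38.3 in DOX) and the decoy Tnfrsf23 (96.5 ± 8.31 and 77.5 ± 12.0). Tnf was the leading ligand, at 38.6 ± 6.85 FPKM in PBS and 108 ± 19.7 FPKM in DOX, which made up 52.7% of the summed ligand FPKM in PBS and 62.4% in DOX on average. Tnfsf10 (14.6 and 35.9 FPKM), Tnfsf12 (9.42 and 6.96) and Tnfsf9 (4.36 and 8.37) followed. Lta and Fasl, which had the largest folds of the 7, stood at 1.002 and 0.825 FPKM in DOX, more than an order of magnitude under Tnf.

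**Figure D2:**
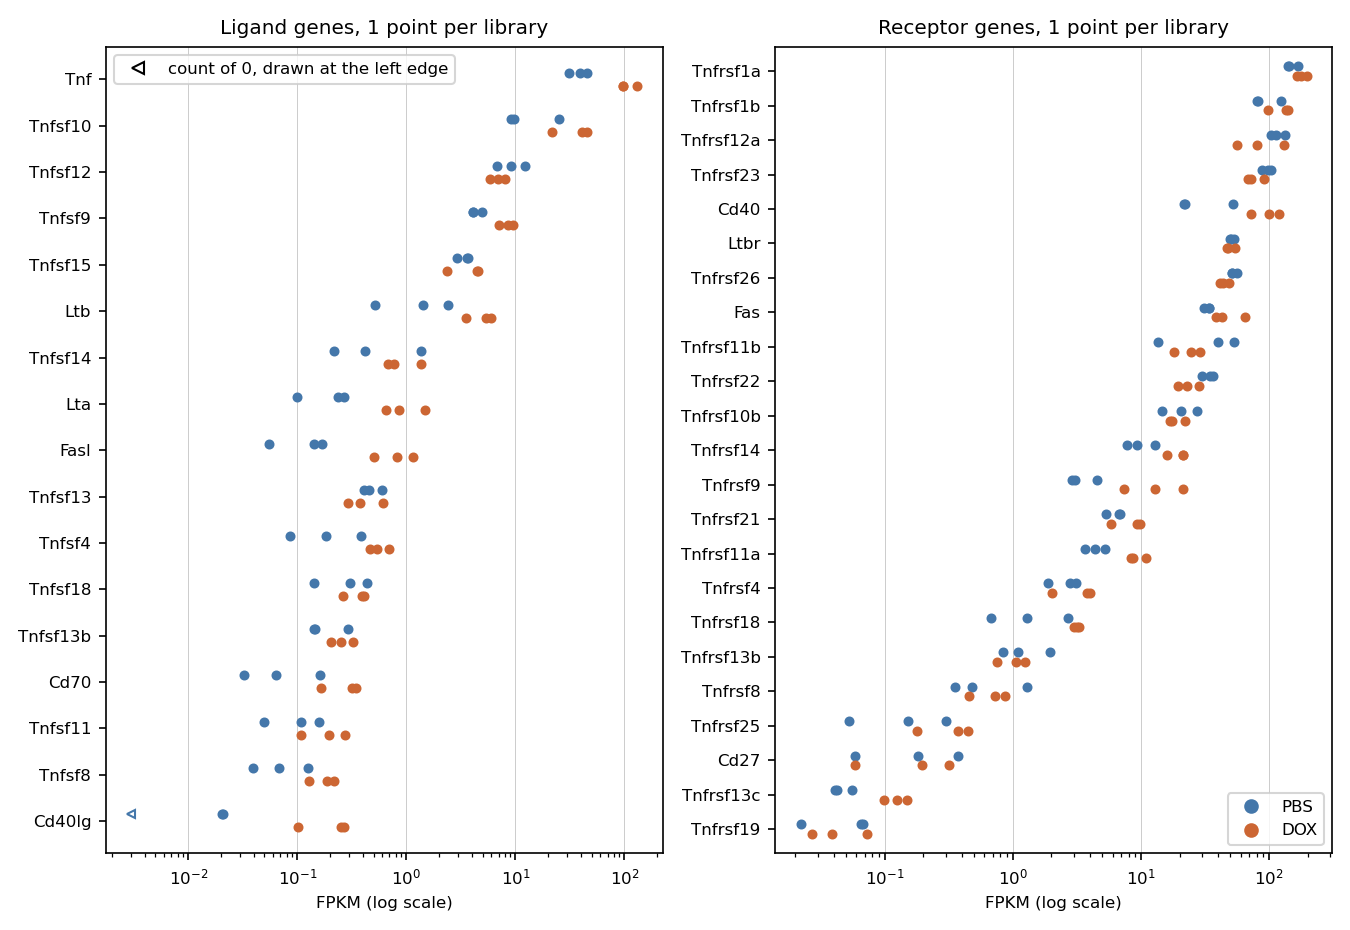
FPKM on a log scale (x axis) of the 17 ligand genes and 23 receptor genes, 1 point per library, ordered by mean level, with the single count of 0 drawn at the left edge. Tnf leads the ligands and its DOX points lie above its PBS points, while Tnfrsf1a leads the receptors.

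Tnf, Lta and Ltb lie side by side in the major histocompatibility region of chromosome 17, within 10.9 kb (GRCm38, GENCODE). Ltb runs from 35194439 to 35196320 on the plus strand, Tnf from 35199381 to 35202007 and Lta from 35203165 to 35205351 on the minus strand. Their upstream sequences are shown because the results on ligands turn on these neighbours, the most abundant ligand gene among them. Sequences are those of RefSeq (GRCm38.p6), read 5′ to 3′ on the strand of the gene and ending at the last base before the transcript start. For Ltb, the 68 bases before the RefSeq start that GENCODE places in the transcript were left off. Capitals mark a match to the TATA box TATAAA in Tnf and Lta, and to the NF-kB-like pattern GGGA-N-TTTCC, read on the opposite strand, in Ltb.
Tnf, chr17:35202008-35202257: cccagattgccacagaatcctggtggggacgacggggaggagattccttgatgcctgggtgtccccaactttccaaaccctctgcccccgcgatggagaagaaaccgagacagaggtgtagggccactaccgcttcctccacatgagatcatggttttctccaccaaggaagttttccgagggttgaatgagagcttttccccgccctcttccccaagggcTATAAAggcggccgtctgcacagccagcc
Lta, chr17:35205352-35205601: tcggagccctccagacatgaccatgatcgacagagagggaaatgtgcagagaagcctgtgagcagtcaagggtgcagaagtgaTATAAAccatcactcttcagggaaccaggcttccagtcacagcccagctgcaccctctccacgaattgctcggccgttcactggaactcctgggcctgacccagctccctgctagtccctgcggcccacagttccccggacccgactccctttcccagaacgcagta
Ltb, chr17:35194257-35194438: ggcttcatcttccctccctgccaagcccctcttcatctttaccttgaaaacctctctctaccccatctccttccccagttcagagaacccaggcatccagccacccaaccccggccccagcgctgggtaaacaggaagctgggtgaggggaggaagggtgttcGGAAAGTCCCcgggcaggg

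The TATA box of Tnf lay at bases 29 to 24 before the start, and the Lta match lay farther off, at bases 167 to 162. The NF-kB-like match of Ltb lay at bases 87 to 78 before the RefSeq start. Windows of 250 bases before the start were available for 30 of the 41 members, and both strands were searched. GGGA-N-TTTCC was found in 1 member, Ltb, and in 0.356% of the 32851 RefSeq promoter windows of this length. An interferon-response-like pattern, GAAA-NN-GAAA, was found in Tnfrsf14, Tnfrsf1b and Tnfsf13b and in 2.98% of all windows. TATAAA, a pattern added after the data were seen, was found in Tnf, Lta, Tnfsf11, Tnfsf18 and Tnfrsf23 and in 12.4% of all windows. A match is a description of the letters, not of binding.

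Tnf encodes the founding cytokine of the family. Its level was 50.7, 70.4 and 61.6 CPM in PBS replicates 1, 2 and 3 and 174, 230 and 158 CPM in DOX replicates 1, 2 and 3. All DOX libraries were at least 158 CPM and no PBS library exceeded 70.4 CPM. Tnf rose 3.08-fold, a log2 fold change of 1.62 (SE 0.18 by edgeR, adjusted p = 0.0200). Leaving out any 1 library gave 1.45 to 1.74, with the call lost without PBS replicate 2 (edgeR adjusted p = 0.0663) or PBS replicate 3 (0.0751).

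Lta encodes lymphotoxin alpha, a secreted ligand of the TNF receptors made by lymphocytes. It was 0.424, 0.366 and 0.152 CPM in PBS and 2.63, 1.13 and 1.39 CPM in DOX, from 16, 14 and 6 reads and 90, 40 and 51 reads. With these reads Lta met the low-count filter only with its DOX libraries. The groups did not overlap, and Lta rose 5.43-fold (edgeR log2 fold change 2.44 with SE 0.51, adjusted p = 0.0423). This call was lost on leaving out any 1 of the 6 libraries, with edgeR adjusted p between 0.0518 and 0.123 and a log2 fold change of 2.00 to 2.71. Ltb, which encodes the membrane partner that anchors lymphotoxin alpha, had 2.57, 1.47 and 0.530 CPM in PBS and 7.02, 4.08 and 5.78 CPM in DOX. DOX libraries were again above all PBS libraries, but the log2 fold change of 1.89 (SE 0.53) did not pass in edgeR (adjusted p = 0.0774) and passed in DESeq2 (adjusted p = 0.00285). It also passed in edgeR without PBS replicate 1 (adjusted p = 0.0486).

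Lta and Ltb moved with transcripts of T and NK cells. The summed level of 11 T and NK cell markers was 7.37, 4.997 and 2.40 CPM in PBS and 24.9, 13.2 and 19.5 CPM in DOX, and 3 of the 9 tested markers rose (Nkg7, Gzma and Cd4). Over all genes tested 6.41% were called, with 4.38% higher. Of the 9 tested markers only Cd4 had at least 10 counts in every PBS library. The others, Nkg7 and Gzma among them, met the low-count filter, like Lta, only with their DOX libraries. The count of 3 of 9 is therefore not independent of a high level in DOX. The 6 libraries stood in the same order by the T and NK cell sum, by Lta and by Ltb. DOX replicate 1 was highest and PBS replicate 3 lowest. Summed monocyte markers gave the same order, at 178, 107 and 73.6 CPM in PBS and 342, 281 and 299 CPM in DOX. The order was thus not particular to T and NK cells, and the part of either cell type in the result was not tested. For Tnf, the macrophage sum was 3486, 5639 and 3637 CPM in PBS and 12637, 6993 and 7631 CPM in DOX. Its lowest DOX library, replicate 2, was the library with the highest Tnf, whereas the PBS libraries stood in the same order by both.

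None of the main receptors of TNF and the lymphotoxins passed the test. Tnfrsf1a was 303, 289 and 342 CPM in PBS and 460, 405 and 356 CPM in DOX. Each DOX library was above each PBS library, by a small margin between the closest pair, and the log2 fold change was 0.39 (SE 0.13 by edgeR, adjusted p = 0.103). In FPKM, PBS replicate 3 (168) exceeded DOX replicate 3 (166), so the separation of Tnfrsf1a depended on the scaling. Tnfrsf1b had 598, 376 and 379 CPM in PBS and 520, 741 and 659 CPM in DOX, with overlapping groups (edgeR log2 fold change 0.51 with SE 0.22, adjusted p = 0.184). Ltbr, the receptor of the membrane lymphotoxin and of LIGHT, varied little between libraries, at 113, 110 and 117 CPM in PBS and 118, 119 and 125 CPM in DOX. Its log2 fold change of 0.09 (SE 0.07 by edgeR, adjusted p = 0.481) turned to -0.04 when library totals alone were used for scaling. The FPKM ratio of Tnf to Tnfrsf1a was 0.218 to 0.318 in PBS and 0.494 to 0.740 in DOX, and that of Ltbr to Ltb was 20.6 to 104 in PBS and 7.91 to 13.6 in DOX.

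Tnfrsf14 encodes HVEM, the receptor of LIGHT that also binds the inhibitory receptor BTLA. It was 62.7, 44.0 and 36.5 CPM in PBS and 113, 112 and 78.3 CPM in DOX, and no PBS library reached the lowest DOX library. Tnfrsf14 rose 2.12-fold (edgeR log2 fold change 1.08 with SE 0.23, adjusted p = 0.0425). The call was lost without PBS replicate 2 (adjusted p = 0.122), PBS replicate 3 (0.123), DOX replicate 1 (0.133) or DOX replicate 2 (0.0857) in edgeR. Of the 50-base stretches of its transcript, 6.14% also occur in other genes. Its ligand gene Tnfsf14 (LIGHT) was low, at 2.54, 0.392 and 0.758 CPM in PBS and 1.40, 1.55 and 2.56 CPM in DOX, and did not pass (edgeR adjusted p = 0.604).

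Among the death ligands, Fasl had the largest fold of the 38 members. It encodes the ligand by which cytotoxic T and NK cells kill targets bearing Fas. It stood at 0.318, 0.262 and 0.101 CPM in PBS (12, 10 and 4 reads) and at 2.40, 1.04 and 1.58 CPM in DOX (82, 37 and 58 reads). The groups did not overlap, although Fasl remained a rare transcript in both and met the low-count filter only with its DOX libraries. Fasl rose 7.31-fold (edgeR log2 fold change 2.87 with SE 0.52, adjusted p = 0.0314), and the value was 2.51 to 3.19 on leaving out 1 library. Without PBS replicate 2, PBS replicate 3 or DOX replicate 1 the edgeR adjusted p was 0.0966, 0.0987 and 0.0980. The 6 libraries stood in the same order by Fasl as by the T and NK cell sum and the monocyte sum given for Lta.

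Fas, the receptor, was 81.2, 71.7 and 78.1 CPM in PBS and 114, 169 and 92.9 CPM in DOX. All DOX libraries were higher, but they spread widely, and Fas passed in DESeq2 (adjusted p = 0.0225) and not in edgeR (log2 fold change 0.71, SE 0.21, adjusted p = 0.0857). Its log2 fold change was 0.43 on leaving out its highest library, DOX replicate 2, and on leaving out DOX replicate 3 it was 0.88 and passed (edgeR adjusted p = 0.0424). The FPKM of Fas was 202 to 611 times that of Fasl in PBS and 37.7 to 128 times in DOX.

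Tnfsf10 encodes TRAIL, which binds the death receptor Tnfrsf10b and decoy receptors. It was 121, 45.9 and 43.0 CPM in PBS and 241, 215 and 107 CPM in DOX. PBS replicate 1 exceeded DOX replicate 3, so the groups overlapped. The log2 fold change of 1.42 (SE 0.47) passed in DESeq2 (adjusted p = 0.0108) and not in edgeR (adjusted p = 0.106), and it was 2.08 without PBS replicate 1 (edgeR adjusted p = 0.0356). Tnfrsf10b did not follow: it had 45.3, 61.8 and 82.1 CPM in PBS and 76.3, 57.1 and 55.1 CPM in DOX (edgeR log2 fold change -0.01 with SE 0.23, adjusted p = 0.988). Of the 50-base stretches of Tnfrsf10b, 9.74% also occur in other genes.

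All 4 decoy receptor genes had a negative log2 fold change and none passed, while over all genes tested 48.6% were positive. The signs were the same with RLE factors and library totals for scaling. These shifted the log2 fold changes by a median of 0.01 and -0.13, too little or in the wrong direction to turn a sign, so they were no check of it. Tnfrsf26, Tnfrsf22 and Tnfrsf23 lie within 78.2 kb of chromosome 7 (143607659 to 143685872), and the latter pair encodes mouse TRAIL decoys. Tnfrsf23 was 385, 399 and 335 CPM in PBS and 300, 391 and 292 CPM in DOX (edgeR log2 fold change -0.19 with SE 0.14, adjusted p = 0.424). Tnfrsf26 was 218, 228 and 210 CPM in PBS and 203, 221 and 177 CPM in DOX (edgeR adjusted p = 0.474). For Tnfrsf22, at 182 ± 19.6 (PBS) and 139 ± 28.3 (DOX) CPM (SD, n = 3 each), edgeR gave a log2 fold change of -0.38 (SE 0.16, adjusted p = 0.166). The values of Tnfrsf22 and Tnfrsf23 are uncertain as single genes, since 17.8% of the 50-base stretches of Tnfrsf22 occur in Tnfrsf23 and 21.8% of those of Tnfrsf23 occur in Tnfrsf22. By FPKM, Tnfrsf23 was 3.21 to 6.69 times as abundant as Tnfrsf10b in PBS and 3.09 to 5.39 times in DOX.

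Other death-domain and related members varied without passing. Tnfrsf21 (DR6) was 21.9 ± 3.11 (PBS) and 31.5 ± 7.71 (DOX) CPM (SD, n = 3 each, log2 fold change 0.52, edgeR adjusted p = 0.149). Tnfsf15 (TL1A, an endothelial ligand) was 18.9 ± 2.53 and 23.1 ± 8.35 CPM (edgeR adjusted p = 0.538), and its receptor gene Tnfrsf25 was near the floor of this depth at 0.412 ± 0.310 and 0.874 ± 0.345 CPM (edgeR adjusted p = 0.305). Tnfrsf12a (Fn14), an injury-induced receptor, had 107, 95.4 and 121 CPM in PBS and 58.3, 82.3 and 125 CPM in DOX, a spread within DOX that covered the PBS range (edgeR log2 fold change -0.28 with SE 0.26, adjusted p = 0.515). Its ligand gene Tnfsf12 (TWEAK) was 20.5, 14.5 and 10.99 CPM in PBS and 10.8, 12.6 and 13.5 CPM in DOX (edgeR adjusted p = 0.409). Tnfsf12 and Tnfsf13 share 49.0% and 51.9% of their 50-base stretches with the read-through gene Tnfsfm13, which was not used here, so both values are uncertain.

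In the costimulatory group a ligand and its own receptor both rose. Tnfsf9 (4-1BB ligand), borne by activated antigen-presenting cells, was 6.02, 5.78 and 7.02 CPM in PBS and 14.02, 15.1 and 10.5 CPM in DOX. The PBS values were close together and all lay under the DOX values. Tnfsf9 rose 2.10-fold (edgeR log2 fold change 1.07 with SE 0.18, adjusted p = 0.0290). This call held without DOX replicate 3 (edgeR adjusted p = 0.0195) and was lost without any other single library, at adjusted p of 0.0528 to 0.0980. Of its 50-base stretches 11.5% occur in Gm11110 on the opposite strand, and since no label states whether counting used the strand, reads of that antisense gene, which averaged 25.5 counts per library, cannot be told apart.

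Tnfrsf9 encodes 4-1BB, a receptor induced on activated T and NK cells and on some myeloid and endothelial cells. It was 10.4, 6.85 and 6.47 CPM in PBS and 53.9, 32.4 and 17.1 CPM in DOX. The DOX libraries differed widely among themselves, yet the lowest exceeded the highest PBS library. Tnfrsf9 rose 4.35-fold (edgeR log2 fold change 2.12 with SE 0.42, adjusted p = 0.0366), and limma-voom gave an adjusted p of 0.0600. It came to 1.65 on leaving out DOX replicate 1 (edgeR adjusted p = 0.0943) and 1.99 to 2.16 without PBS replicate 2, PBS replicate 3 or DOX replicate 2, where the call was also lost (adjusted p 0.112, 0.126 and 0.0661). In FPKM, Tnfrsf9 was 0.589 to 1.11 times Tnfsf9 in PBS and 1.04 to 2.46 times in DOX.

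Cd40, the receptor through which T cells license macrophages, dendritic cells and B cells, stood at 90.5, 37.1 and 36.2 CPM in PBS and 193, 226 and 128 CPM in DOX. PBS replicate 1 was well above the other PBS libraries but under all DOX libraries. The log2 fold change of 1.74 (SE 0.40) fell just short in edgeR (adjusted p = 0.0505) and passed in DESeq2 (adjusted p = 0.000152) and limma-voom (adjusted p = 0.0414). Without PBS replicate 1 it was 2.31 (edgeR adjusted p = 0.0246). In FPKM, Cd40 went from 4.19% to 11.6% of the receptor sum on average. Its ligand gene Cd40lg, a marker of activated CD4 T cells, had 1, 0 and 1 reads in PBS and 13, 5 and 12 reads in DOX. That was too few for the filter, and with no filter the edgeR adjusted p was 0.0446.

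Of the remaining costimulatory members, Tnfrsf18 (GITR) had 2.73, 1.26 and 0.657 CPM in PBS and 3.37, 3.49 and 3.38 CPM in DOX. The DOX libraries were nearly equal and above all PBS libraries (edgeR log2 fold change 1.14 with SE 0.48, adjusted p = 0.173), and 18.2% of its 50-base stretches occur in the antisense gene Gm16008. Without PBS replicate 1 it was called (edgeR adjusted p = 0.0462). Tnfsf4 (OX40 ligand) went from 0.339 ± 0.245 to 0.948 ± 0.165 CPM and Tnfsf8 (CD30 ligand) from 0.306 ± 0.180 to 0.767 ± 0.228 CPM (SD, n = 3 each), both without overlap and with edgeR adjusted p of 0.129 and 0.143. Their receptor genes Tnfrsf4 (3.21 ± 0.797 and 4.34 ± 1.36 CPM) and Tnfrsf8 (2.38 ± 1.74 and 2.50 ± 0.757 CPM), the GITR ligand gene Tnfsf18 (0.878 ± 0.437 and 1.14 ± 0.242 CPM) and Cd27 (0.359 ± 0.284 and 0.355 ± 0.231 CPM) all overlapped between groups and did not pass. Cd70, the ligand of CD27, had 5, 1 and 2 reads in PBS and 10, 11 and 5 reads in DOX and was not tested.

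Tnfrsf11a encodes RANK, the receptor that drives osteoclast formation and is also borne by macrophages and dendritic cells. It lies on chromosome 1 (105780718 to 105847981, GRCm38) and was 33.3, 27.0 and 22.4 CPM in PBS and 76.7, 60.0 and 54.0 CPM in DOX. The lowest DOX library stood well above the highest PBS library. Tnfrsf11a rose 2.31-fold (edgeR log2 fold change 1.21 with SE 0.19, adjusted p = 0.0258), with 1.05 to 1.36 on leaving out 1 library and the call lost without PBS replicate 2 (adjusted p = 0.0825), PBS replicate 3 (0.0868) or DOX replicate 1 (0.0673). Its ligand gene Tnfsf11 (RANKL) was low in both groups, at 0.345, 0.105 and 0.227 CPM in PBS and 0.263, 0.648 and 0.437 CPM in DOX (edgeR adjusted p = 0.282). Tnfrsf11b encodes osteoprotegerin, the secreted decoy for RANKL. It varied widely in PBS, at 108, 35.5 and 138 CPM, against 54.3, 84.9 and 67.7 CPM in DOX (edgeR log2 fold change -0.44 with SE 0.45, adjusted p = 0.553). The FPKM ratio of Tnfrsf11a to Tnfrsf11b was 0.131, 0.323 and 0.0689 in PBS and 0.600, 0.300 and 0.338 in DOX, so PBS replicate 2 reached the DOX range.

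Members concerned with B cell survival stayed low. Tnfsf13 (APRIL) was 0.742, 0.942 and 0.657 CPM in PBS and 0.527, 0.676 and 1.01 CPM in DOX. Its antisense transcript Tnfsf13os was 1.01, 0.680 and 0.732 CPM in PBS and 0.732, 0.676 and 0.928 CPM in DOX, and where these 2 genes overlap their reads cannot be told apart without the strand. Tnfsf13b (BAFF) was 0.387 ± 0.168 and 0.571 ± 0.107 CPM (SD, n = 3 each). The receptor gene Tnfrsf13b (TACI) was 5.51, 3.01 and 2.27 CPM in PBS and 2.34, 3.24 and 3.57 CPM in DOX. None of these passed in edgeR, with adjusted p between 0.417 and 0.937. Tnfrsf13c (BAFF receptor) had 4, 3 and 3 reads in PBS and 9, 11 and 7 in DOX and was not tested, and Tnfrsf17 was not analysed here. Tnfrsf19, an orphan receptor, was at 0.106, 0.314 and 0.303 CPM in PBS and 0.205, 0.141 and 0.355 CPM in DOX (edgeR adjusted p = 0.969).

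**Figure D3:**
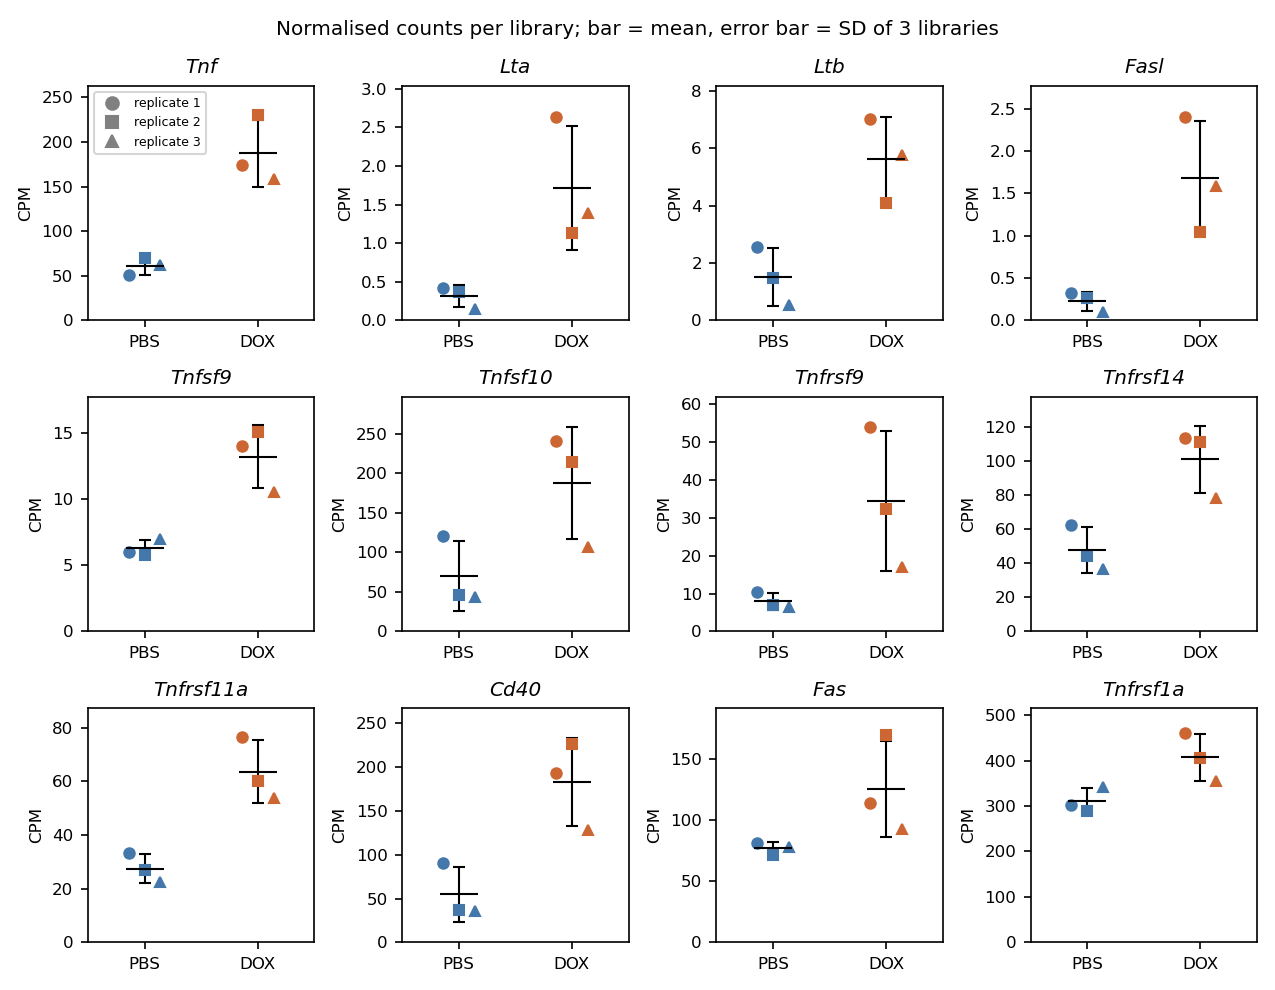
CPM (y axis, from 0) in each of the 6 libraries for the 7 members past the edgeR threshold, the 4 called by DESeq2 but not by edgeR (Cd40, Ltb, Tnfsf10, Fas) and Tnfrsf1a, with the mean as a bar and the SD of 3 libraries as error bars. DOX libraries lie above PBS libraries in every panel except Tnfsf10, where PBS replicate 1 (121 CPM) exceeds DOX replicate 3 (107 CPM).

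Other genes of the pathway were read from 5 lists with 70 members, all tested: adaptors, kinases and ubiquitin enzymes, NF-kB genes, cell death genes, and genes that shed or process the ligands. Of them 9 rose and none fell in edgeR (12.9%, against 6.41% of all genes). The log2 fold change was positive in 58, with a median of 0.29, against 48.6% of all genes and a median of -0.01. With scaling by library totals 48 were positive. The count was 0 without PBS replicate 2, PBS replicate 3 or DOX replicate 1 and 2 without DOX replicate 2. DESeq2 called 19 higher and 1 lower (Ikbkg, the NEMO subunit), against 11.3% and 6.36% of all genes.

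NF-kB subunits and inhibitors had positive log2 fold changes in 11 of 11 genes (48.6% over all genes tested), also with scaling by library totals. Of the 11 genes 2 rose (18.2%, against 6.41% of all genes). Nfkbie, which encodes the inhibitor IkB-epsilon and is itself an NF-kB target, went from 59.1 ± 7.62 to 111 ± 14.9 CPM (SD, n = 3 each, edgeR log2 fold change 0.91 with SE 0.14, adjusted p = 0.0247). Rel (c-Rel) went from 48.8 ± 3.41 to 80.9 ± 16.9 CPM (edgeR adjusted p = 0.0467). Nfkb1 had a log2 fold change of 0.48 and Nfkbia of 0.28, and neither passed (edgeR adjusted p = 0.0849 and 0.266).

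Among 25 kinases and ubiquitin enzymes 2 rose, a share near the 6.41% called over all genes. Ikbke, an IKK-related kinase of the interferon and NF-kB pathways, went from 75.3 ± 18.6 to 209 ± 42.1 CPM, 2.77-fold (SD, n = 3 each, edgeR adjusted p = 0.0247). Birc2 (cIAP1), the ubiquitin ligase at the TNF receptor complex, went from 58.4 ± 2.97 to 98.2 ± 22.7 CPM (edgeR adjusted p = 0.0480). Its paralog Birc3 had a log2 fold change of 0.67 (edgeR adjusted p = 0.0530), and Tnfaip3 (A20), the deubiquitinase that limits the signal, one of 0.47 (edgeR adjusted p = 0.158).

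Of 12 cell death effectors 3 rose (25%, against 6.41% of all genes). Among them Casp4, the sensor of cytosolic lipopolysaccharide, went from 177 ± 28.6 to 300 ± 40.3 CPM and Casp12 from 3.05 ± 0.504 to 6.55 ± 1.27 CPM (SD, n = 3 each, edgeR adjusted p = 0.0371 and 0.0415). Casp4 and Casp12 are inflammatory caspases and not effectors of the TNF receptors. The receptor-proximal genes Casp8, Ripk3 and Mlkl had log2 fold changes of 0.57, 0.71 and 0.61 without passing (edgeR adjusted p = 0.0742, 0.0981 and 0.110).

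Of 13 adaptors and TRAFs 1 rose, again a share near that over all genes. This was Tank, a TRAF-binding regulator of NF-kB, which went from 54.7 ± 7.24 to 80.4 ± 2.02 CPM (SD, n = 3 each, edgeR adjusted p = 0.0365). Traf1, itself induced by NF-kB, had a log2 fold change of 0.83 (edgeR adjusted p = 0.0979). Of 9 genes for shedding and processing of the ligands 1 rose (11.1%, against 6.41% of all genes). It was Sppl2a, an intramembrane protease that cuts the membrane stubs of TNF and Fas ligand. Sppl2a went from 183 ± 25.9 to 389 ± 81.8 CPM (2.12-fold, edgeR adjusted p = 0.0278). Adam17, the TNF-converting enzyme, was 255 ± 17.8 and 327 ± 40.3 CPM and did not pass (log2 fold change 0.36, edgeR adjusted p = 0.105).

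**Figure D4:**
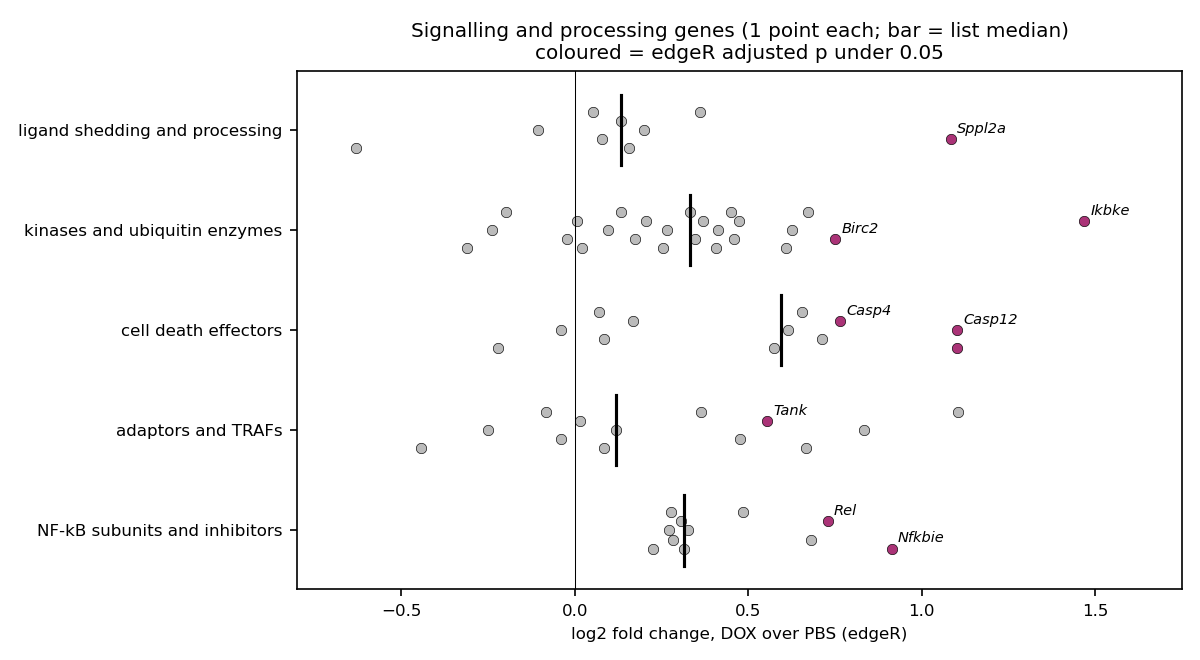
Log2 fold change of DOX over PBS (x axis, edgeR) of 70 signalling and processing genes in 5 lists, 1 point per gene, with the list median as a bar and genes past the edgeR threshold coloured (those described in the text are named). All 9 coloured points lie to the right of 0, led by Ikbke, and all 11 NF-kB genes are to the right of 0.

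Summed levels of immune cell markers were also higher in every DOX library than in every PBS library. The macrophage list had all 12 genes positive (48.6% over all genes tested) and 10 with every DOX library above every PBS library (16.9% over all genes). In edgeR 2 of the 12 were called, against 6.41% of all genes: C1qb and C1qc rose 2.38-fold and 2.53-fold (edgeR adjusted p = 0.0453 and 0.0467). Monocyte markers summed to 73.6 to 178 CPM in PBS and 281 to 342 CPM in DOX (1 of 5 rose, Plac8), neutrophil markers to 28.2 to 59.0 and 108 to 160 CPM (3 of 5 rose), and dendritic cell markers to 56.5 to 60.9 and 111 to 139 CPM (3 of 6 rose, with Ccr7 4.08-fold higher). Single genes weighed heavily in these sums: Csf3r went from 39.3 to 116 CPM on average and Ccr7 from 19.9 to 81.0 CPM. The neutrophil genes Ly6g and Cxcr2 had at most 8 reads in any library and were not tested. The dendritic cell genes Xcr1, Zbtb46 and Clec9a had log2 fold changes of 0.25, -0.20 and -0.34, and none passed (edgeR adjusted p = 0.752, 0.430 and 0.558). B and plasma cell markers summed to 1.39 to 3.06 CPM in PBS and 6.90 to 16.9 CPM in DOX (1 of 4 rose, Jchain). No marker of these lists in the table was at 0 in all PBS libraries. The part of these cell types in the rise of Tnf, Tnfsf9, Tnfrsf9, Tnfrsf14 and Tnfrsf11a was not tested.

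Markers of the other liver cells gave few calls. Of 12 stellate cell markers and 8 genes of activated stellate cells, 0 rose and 0 fell in edgeR, with 0 and 2 respectively at an unadjusted p under 0.05 and 0 and 2 called by DESeq2. The latter 2 were Acta2 and Tagln, both lower in DOX (edgeR log2 fold change -1.13 and -1.51, DESeq2 adjusted p = 0.00724 and 0.00683). Their groups overlapped, and in edgeR their adjusted p was 0.0797 and 0.0958. Of 10 endothelial markers 1 fell (Tek, edgeR adjusted p = 0.0311), 4 had an unadjusted p under 0.05, and DESeq2 called 3 lower and 1 higher. In 4 of the 10 every DOX library lay below every PBS library, against 17.7% of all genes tested. Hepatocyte markers summed to 252 to 506 CPM in PBS and to 986, 397 and 3493 CPM in DOX, with 0 of 9 called in edgeR, 8 at an unadjusted p under 0.05 and 4 called by DESeq2. All 9 had a positive log2 fold change (48.6% over all genes tested), with a median of 2.60, so the rise in DOX libraries was not limited to immune markers. The hepatocyte sum was highest in DOX replicate 3, in which Tnf, Tnfsf9, Tnfsf10, Tnfrsf9, Tnfrsf14, Tnfrsf11a, Cd40 and Fas had their lowest DOX values. Fasl, Lta and Ltb instead had theirs in DOX replicate 2, at 1.04, 1.13 and 4.08 CPM. The part of hepatocyte RNA in these values was not tested. Without DOX replicate 3 the number of members called was 8, with Cd40 and Fas gained and Lta lost. Of the cholangiocyte markers 1 of 5 rose, Epcam, and all 5 had a positive log2 fold change (median 1.04).

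**Figure D5:**
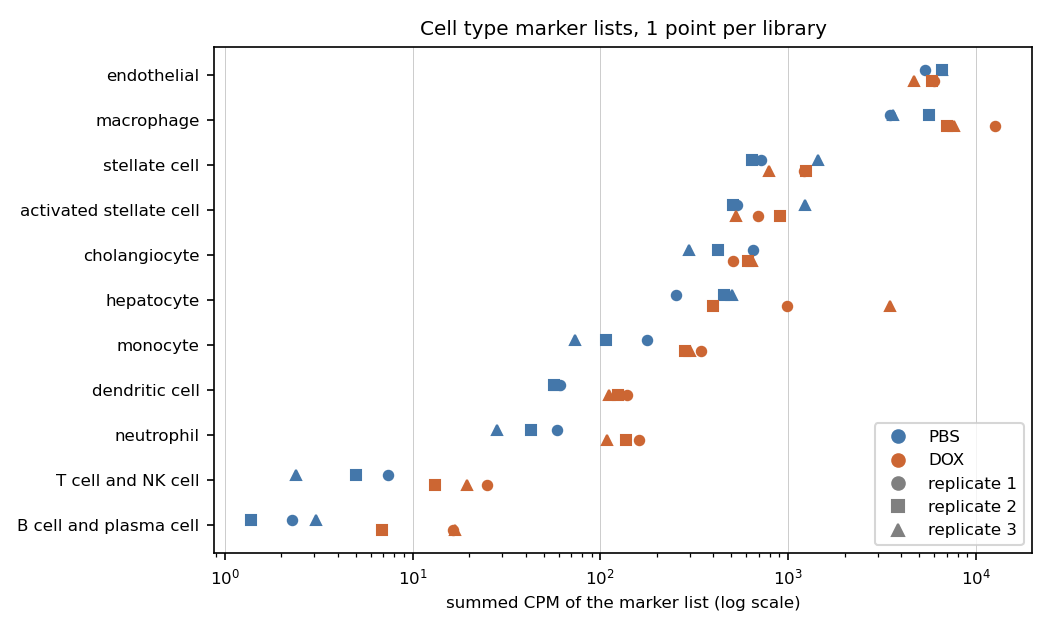
Summed CPM of cell type marker lists (log axis), 1 point per library, for PBS and DOX. DOX libraries lie above all PBS libraries for the macrophage, monocyte, neutrophil, dendritic, T and NK, and B and plasma cell lists, and overlap PBS for the endothelial, hepatocyte, cholangiocyte and stellate lists.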

How the data were processed

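The 3 PBS and 3 DOX libraries were prepared from total RNA with a SMARTER kit for mRNA, per the labels' protocols. The authors deposited raw counts by gene symbol, and FPKM values that equal these counts scaled by 1 length per gene and by the library total, within a relative tolerance of 1e-04 in all nonzero cells. Aligner, counter and strand use are stated nowhere in the labels. The builds GRCm38, mm10 and hg38 are named without a role, per the submitters' processing notes.

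The test was the two-sided quasi-likelihood test of edgeR 4.0.16 (R 4.3.3) with TMM factors (0.923 to 1.06) on the counts, group as the only term, a default filterByExpr filter (at least 10 counts, 15 in total) and Benjamini-Hochberg adjustment over all genes tested, at a threshold of 0.05. Each SE is the size of the log2 fold change over the root of F. The common biological coefficient of variation was 0.230. Alternatives were DESeq2 1.42.0, limma-voom (limma 3.58.1), limma on log2(FPKM + 1) and log2(FPKM + 0.1), other scalings and filters, the replicate number as a block and leaving out each library. A count of 0 allows up to 3 reads, or 0.0758 to 0.0878 CPM, for counting error only. Within groups, chi-square per degree of freedom was 38.6 to 82.1, more than counting noise alone would give; this does not show that libraries came from separate animals. The code was tested on simulated counts.

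Members and lists were chosen with earlier results of these data known. Full values are given for members past the threshold, those called by DESeq2 or limma-voom only, and the 2 with the highest FPKM in each role list. From each pathway list the genes past the threshold are named, except 1 that is not reported here, and genes named without passing were chosen after their values were seen, as were the FPKM ratios. Shared 50-base stretches were counted between GENCODE vM21 transcripts.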

Additional observations from a re-analysis of the deposited data

How the results depend on the processing

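No member was called lower under any of the 16 alternatives run. DESeq2 called 2629 genes, 11 members and 20 pathway genes, and limma on log2(FPKM + 1) called 4 members, the cause being untested. Leaving out 1 library gave 0 to 1090 genes, 0 to 9 members and 0 to 12 pathway genes: without PBS replicate 2 or PBS replicate 3 the lowest edgeR adjusted p of any gene was 0.0663 and 0.0634, while 3294 and 3092 genes, 12 and 14 of them members, had an unadjusted p under 0.05. PBS and DOX libraries of the same replicate number had correlations of 0.0949, -0.106 and 0.232 for numbers 1, 2 and 3. These are of deviations from means of 3 libraries, so they cannot show whether the numbers pair the samples. With the replicate block 781 genes, 8 members and 9 pathway genes were called. Of the 7 members 6 were kept and Tnfsf9 was lost (edgeR adjusted p = 0.0547). Scaling by library totals moved the median log2 fold change by -0.13 and the share of higher calls from 68.3% to 45.6%, and that share was 51.3%, 51.6% and 42.5% for log2(FPKM + 1), log2(FPKM + 0.1) and the filter of 1 FPKM in 3 samples. It was 79.6% under the block.

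Members near 0 changed sign, and the cause was not tested. Leaving out 1 library gave Cd27 -0.54 to 0.77 (0.41 without DOX replicate 2), Tnfrsf10b -0.20 to 0.23 (0.06 and 0.08 without DOX replicates 2 and 3), Tnfrsf13b -0.48 to 0.21, Tnfrsf19 -0.48 to 0.21, Tnfrsf8 -0.26 to 0.86, Tnfsf13 -0.37 to 0.12 and Tnfsf13os -0.20 to 0.14. Cd27 became 0.00033 with RLE factors, 0.0887 in limma-voom and 0.0186 with the block. Ltbr became -0.0371 with library totals, -0.0387 on log2(FPKM + 1) with and without the FPKM filter, and -0.0394 on log2(FPKM + 0.1). Tnfrsf10b became 0.0051 with RLE factors, 0.0178 in limma-voom and 0.0168 with the block, Tnfrsf19 became 0.0073 in limma-voom, and Tnfrsf8 became -0.0351 with library totals.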
